A study of Mus musculus with 18 samples.

Results

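The response of Il10-/- bone marrow-derived macrophages (BMDMs) to lipopolysaccharide (LPS) without any pretreatment was taken from the 3 libraries labelled LPS_Untreated and the 3 labelled Unstimulated_Untreated, 6 of the 18 libraries of the series, chosen by those labels alone and described over all genes. The cells of both groups came from 12-week-old male Il10-/- mice on the C57BL/6J background, grown for 6 days with L929-conditioned medium, left for 12 h with neither JQ1 nor IL-10, and then given PBS or 50 ng/mL LPS for 4 h. Every library of the comparison, the unstimulated ones included, therefore lacked IL-10 of its own, and no wild-type library was part of the 18. The sample labels call these cultures untreated, whereas the study's methods mention a vehicle before the stimulus, so the exact content of the medium during the first 12 h is uncertain. Matched cultures of 3 mice carry the replicate numbers 1, 2 and 3 in both groups, and RNA was measured in ribosome-depleted libraries of bulk cells, as RSEM's expected counts and as TPM, a share of transcripts corrected for their length. In bulk cells a change in RNA per cell and a change in the make-up of the culture cannot be told apart.

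LPS of Gram-negative bacteria is passed by CD14 to the receptor TLR4 and its partner MD-2, and TLR4 signals through the adaptors MyD88 and TRIF. These adaptors lead to the transcription factors NF-kB, AP-1 and IRF3, which switch on cytokine and chemokine genes and the gene of interferon beta. Secreted interferon beta then acts on the same cells through its own receptor to switch on the interferon-stimulated genes, while inhibitors such as IkB-alpha and A20, and IL-10 in cells that can make it, limit the response.

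The libraries held 6781952 to 16434015 expected counts in the unstimulated group and 15325874 to 20560937 in the LPS group, and the precursor ribosomal RNA Rn45s took 9.13 to 11.0% of the counts in the former and 5.54 to 7.07% in the latter. The cells carried macrophage RNA: the summed level of the 10 macrophage markers was 23795 to 25694 TPM unstimulated and 15779.9 to 17213 TPM with LPS, whereas the marker sums of B cells, NK cells, dendritic cells and erythroid cells stayed at or under 5.88 TPM in each of the 6 libraries. Lyz2 made up most of the macrophage sum, with a mean of 18407 TPM unstimulated and 10214 with LPS. Of the 10 macrophage markers 4 rose, 2 fell and 4 did not pass, so the lower sum is no uniform fall. Osteoclast markers summed to 32.8 to 50.8 TPM unstimulated and 147 to 189 with LPS (2 of 5 rose), neutrophil markers to 24.4 to 88.9 and 36 to 51.7 (0 of 7 tested rose), endothelial markers to at most 10.1 and megakaryocyte markers, some of which macrophages share, to 342 to 397, and their part in the results was not tested. Of the 24485 genes in the files, 14965 were tested by the Wald test of DESeq2, and a gene is said to have risen or fallen when its Benjamini-Hochberg adjusted p was under 0.05. Values of a gene are normalised counts (expected counts divided by the median-of-ratios factor of the library) for replicates 1, 2 and 3, and fold changes are log2, LPS over unstimulated, with their standard error. This scaling put the median tested gene at a log2 fold change of -0.07, scaling to the total count put it at -1.02 and the TPM values at -0.69, so fold changes were lower by about 0.93 under total counts, and a rise smaller than this turns into a fall there.

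Il10 itself, on chromosome 1 of mm9 (chr1:132916422-132921551), was counted at a low level in all 6 libraries, with 37.0, 27.1 and 33.5 normalised counts in the unstimulated and 53.7, 61.0 and 74.9 in the LPS libraries. The LPS libraries were higher without overlap under this scaling, as in 33.4% of all genes tested (35.9% were lower without overlap), with a log2 fold change of 0.93 ± 0.24 (adjusted p = 2.7e-04), but the change was -0.0034 under total-count scaling. Whether these reads come from a part of the gene left in the knockout was not tested, since only values per gene were used. Without a wild-type library these values check no label.

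Of the 14965 genes tested, 9656 (64.5%) changed with LPS, 4728 (31.6%) rising and 4928 (32.9%) falling. More than 2-fold changes passed their own test in 3783 of 13366 genes (28.3%), 2009 upward (15%) and 1774 downward (13.3%). The rises reached further than the falls under the main scaling: 552 genes rose and 265 fell by more than 4 on the log2 scale, and 76 rose and 3 fell by more than 8. The measurable size of a fall is bounded by the count at rest, so this difference is in part set in advance. These cut-offs were counted under the main scaling only. Under total counts 1078 genes rose and 4454 fell by more than 2-fold. Of the genes that rose, 293 were at or under 3 counts, the floor, in every unstimulated library, and 409 of those that fell were at or under it in every LPS library. The counts beyond 4 and 8 do not leave out such genes, whose fitted size is uncertain. The split depends on the scaling, with 2223 genes higher and 8858 lower of 14646 tested under total counts. On log2(TPM + 1) 2310 were higher and 7641 lower of 11436. Most genes tested fell under total counts, so the counts of list members given below for that scaling are to be read against this split.

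**Figure D1:**
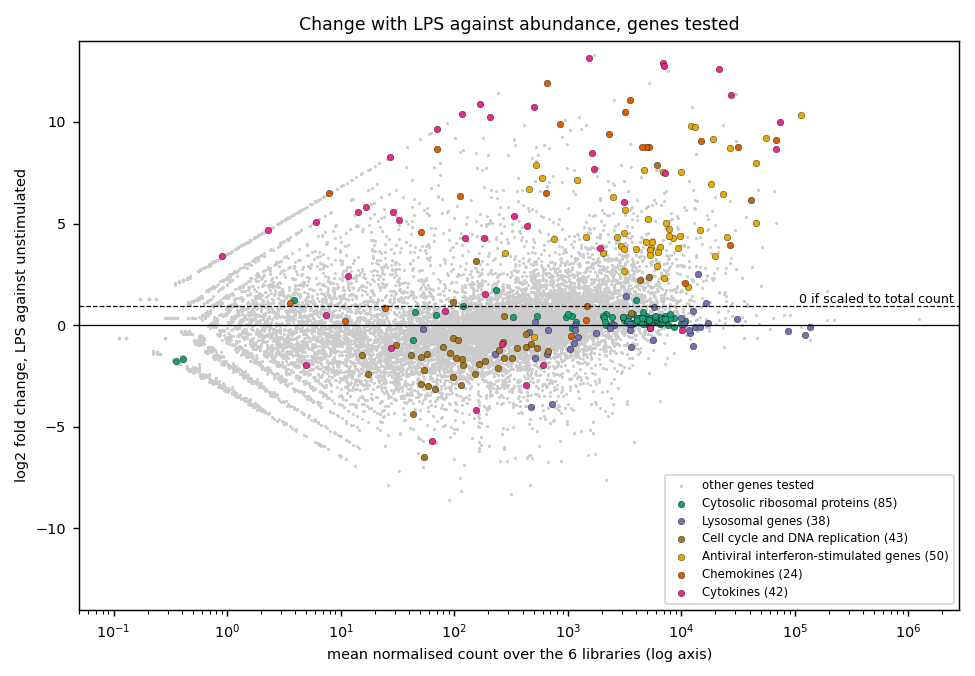
Log2 fold change of LPS over unstimulated (vertical axis) against the mean normalised count over the 6 libraries (horizontal log axis) for the genes tested, with the members of 6 lists in colour; the dashed line is where 0 would lie under total-count scaling, and 1 gene, Pisd-ps1 at -22.44, lies outside the axis. Most cytokines and chemokines and all but 1 of the antiviral genes lie above both lines, most ribosomal proteins between them, and most cell cycle genes below.

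The cells gave a large part of their measured RNA over to the genes that rose. The 2009 genes that rose by more than 2-fold held 14.6, 12.8 and 13.5% of the expected counts in the unstimulated libraries and 49.9, 49.2 and 51.8% in the LPS libraries, a shift the choice of these genes fixes in direction but not in size. Cytokines and chemokines together took 0.243, 0.189 and 0.204% of TPM unstimulated and 9.35, 9.22 and 10.5% with LPS, and antiviral interferon-stimulated genes went from 0.203% ± 0.0605 to 3.62% ± 0.344 (SD, n = 3). Ribosomal protein genes moved the other way in share, from 8.94% ± 0.513 to 6.21% ± 0.309, as did lysosomal genes, from 3.41% ± 0.121 to 1.81% ± 0.112. For all 4 shares the groups did not overlap, and the exact two-sided permutation test gave p = 0.1, the smallest that 3 against 3 libraries allow. TPM counts each transcript per length, so short transcripts weigh more than in the counts, where cytokines and chemokines went from 0.286% to 4.84%.

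**Figure D2:**
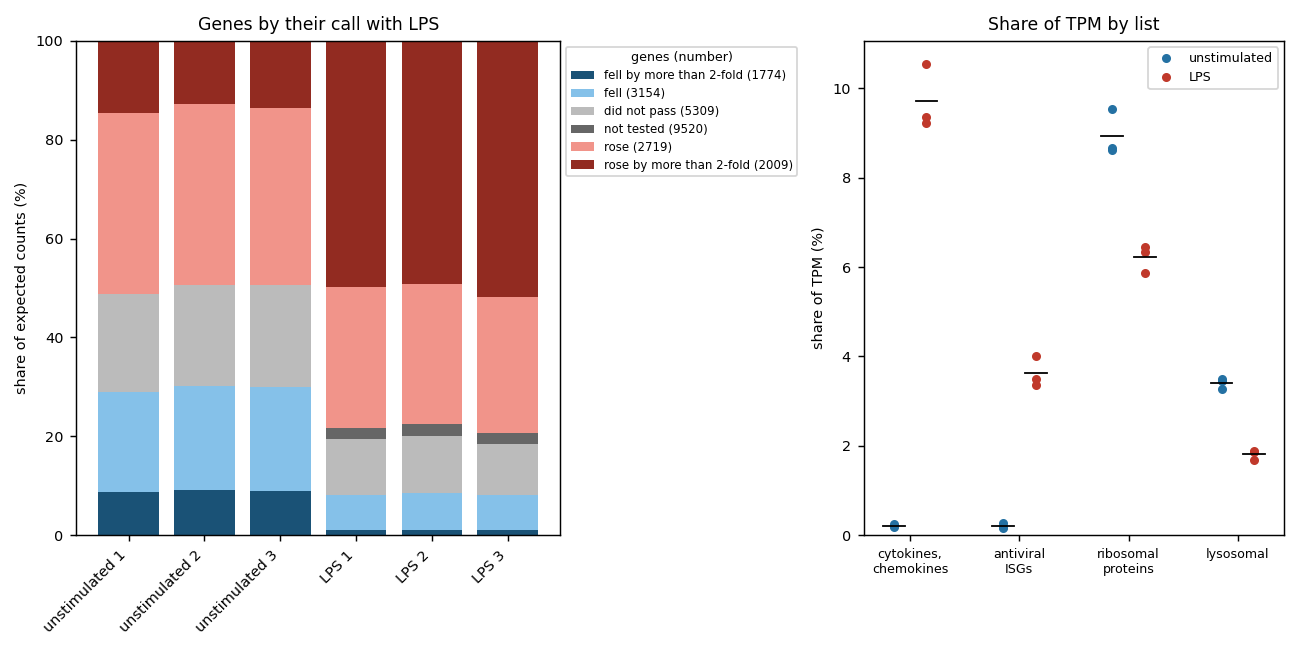
Left, share of the expected counts (%) in each of the 6 libraries held by genes grouped by their call with LPS, and right, share of TPM (%) held by 4 gene lists in each library, with the mean of 3 as a bar. Genes that rose by more than 2-fold take close to 50% of the counts in each LPS library, and the groups do not overlap for any of the 4 lists.

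The receptors of the pathway changed in unequal directions. Of the 16 genes of the TLR family and its co-receptors, all tested, 12 rose and 2 fell, with a median log2 fold change of 1.78; under total-count scaling 7 rose and 5 fell. Tlr4, the LPS receptor, held 1071, 952 and 1112 normalised counts unstimulated and 394, 365 and 636 with LPS. It was lower in each LPS library than in any unstimulated one (log2 fold change -1.17 ± 0.20, adjusted p = 1.8e-08). Cd14, the co-receptor that hands LPS over, went the other way, from 7015, 5622 and 6304 to 30385, 34168 and 31114 (2.34 ± 0.08), again without overlap. Ly96, which encodes MD-2, was at 48.6, 45.7 and 70.4 and 115, 122 and 296 (1.68 ± 0.38); without LPS replicate 3 its change was 1.09. The larger rises were those of other receptors of microbial products: Tlr3 (4.15), a sensor of double-stranded RNA, Tlr1 (3.90) and Tlr2 (3.10), which bind bacterial lipoproteins, while Tlr13, a sensor of bacterial ribosomal RNA, fell by 3.25 from 3675, 3966 and 4365 to 346, 378 and 537. None of the 4 overlapped between groups. Of all genes tested 33.4% were higher and 35.9% lower without overlap, so a lack of overlap is common, here and for the genes below.

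Among the 20 adaptors and kinases between TLR4 and the nucleus, 16 rose and 4 fell (median 1.08; 10 and 8 under total counts). Myd88, the adaptor shared by most TLRs, rose from 815, 705 and 707 to 7936, 8067 and 7209 (3.38 ± 0.07), and Ticam1, which encodes TRIF, from 511, 575 and 498 to 1692, 1777 and 1486 (1.66 ± 0.10), so the adaptor of the cytokine arm rose by more than that of the interferon arm on the log2 scale. The kinases Irak2 (3.53) and Ikbke (3.47) rose more than Myd88, and the ubiquitin-binding Tab2 (2.58) rose less. Irak4, the kinase recruited first by MyD88, and Tab1, a partner of TAK1, were the largest falls, at -1.30 and -2.35.

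All 5 NF-kB subunit genes rose by more than 2-fold, with a median of 4.02, and all 5 rose under total-count scaling too. Nfkb1, the p105/p50 gene, went from 2274, 2068 and 1949 to 40200.1, 38102 and 35216 (4.17 ± 0.09), Nfkb2 changed by 4.33 ± 0.13, Rel by 4.02 ± 0.12 and Relb by 2.28 ± 0.12. Rela, the p65 gene, rose least, from 1855, 1712 and 1577 to 6856, 6800.4 and 5588 (1.90 ± 0.10). The IRF and STAT factors rose in 12 of 16 genes and fell in 3 (median 2.11). Irf3, which TLR4 activates through TRIF without new synthesis, was at 454, 404 and 401 and 363, 343 and 314 normalised counts, lower by a small amount (-0.31 ± 0.11) that no longer passed without unstimulated replicate 1 (adjusted p = 0.062) or LPS replicate 3 (adjusted p = 0.05). Irf7 and Irf1, which interferon and NF-kB induce, rose by 5.65 ± 0.37 and 4.38 ± 0.27, and Stat5a and Stat2 by 4.35 and 3.72. Stat6, the factor of IL-4 signalling, fell from 2998, 3235 and 3087 to 1851, 1925 and 1710.3 (-0.76 ± 0.06).

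The AP-1, ATF and EGR genes split, with 8 rising and 6 falling of 17 (median 0.43). Rises were led by Batf2 (5.25), Batf (4.16), Maff (3.89) and Mafk (3.04), small factors of the basic leucine zipper class, whereas Fos, an immediate early gene, fell from 2572, 1806 and 1876 to 486, 508 and 404 (-2.16 ± 0.16). At 4 h the median of this list exceeded that of all genes by 0.49, and without LPS replicate 2 it lay 0.25 below it.

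Genes that limit the signal rose in most cases: 25 of 29 feedback inhibitors rose, 21 of them by more than 2-fold, and 2 fell, with a median of 2.64. Nfkbia, the gene of IkB-alpha, which holds NF-kB in the cytosol, was at 1534, 1082 and 1111 and 35014, 34362 and 30719 normalised counts (4.74 ± 0.12). Tnfaip3, the gene of the deubiquitinase A20, was at 618, 441 and 422 and 39750.5, 38274 and 39029.6 (6.30 ± 0.12), and neither gene's groups came close to each other. Socs3 and Socs1, which block cytokine receptor kinases, rose by 8.42 ± 0.53 and 7.89 ± 0.35, the phosphatase gene Dusp2 by 7.61 ± 0.14, and Usp18, which damps the interferon receptor, by 7.52 ± 0.30. Dusp6, a phosphatase of the ERK kinases, was the larger of the falls, from 360.3, 326 and 343 to 99.0, 133 and 112 (-1.57 ± 0.13).

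The cytokine genes held the largest fitted rises of the 40 lists. Of 42 tested, 31 rose, 29 by more than 2-fold, and 7 fell, with a median log2 fold change of 5.29. Tnf held 447, 242 and 297 normalised counts unstimulated and 145049, 136379 and 129045 with LPS (8.69 ± 0.26, adjusted p = 1.4e-252), where it reached 7471 ± 151 TPM (SD, n = 3). Il1b was at 282, 62.6 and 77.8 and 142152, 142897 and 157530 (10.02 ± 0.43), and unstimulated replicate 1 was the highest of its group. Il6, from 4.63, 0 and 0.670 to 13638, 11195 and 17655, and Il12b, the p40 subunit of IL-12 and IL-23, from 18.5, 1.69 and 0 to 42189, 38525 and 48725, started at a handful of counts, so their fitted changes of 12.76 ± 0.70 and 12.60 ± 1.05 rest on a base that few reads measure (14.78 and 16.33 without unstimulated replicate 1). For genes at or under the floor in all 3 unstimulated libraries only a bound can be given. Edn1, the endothelin precursor, was at least 981-fold higher, Il27, the p28 subunit of IL-27, at least 4405-fold, and Il12a, the p35 subunit of IL-12, at least 323-fold; outside the list, the lipase gene Lipg was at least 1096-fold higher. Csf1 (7.48), which keeps macrophages alive, and Tnfsf10 (7.71), the TRAIL gene, also rose, and Tgfb3 (-5.70; -6.81 without LPS replicate 1 and -5.00 without LPS replicate 2) and Il16 (-4.17) were the largest falls.

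Chemokine genes had the highest median of the 40 lists, 7.60, with 19 of 24 tested members rising, 18 of them by more than 2-fold, and 1 falling; of the 30 listed, 6 had no adjusted p. The median lay 7.66 above that of all genes, and between 8.13 and 9.12 above it with any 1 of the 6 libraries left out, the highest value being that without unstimulated replicate 1. These medians do not cover the same members, since Cxcl10 and Ccl5 had an adjusted p in each left-out fit but not in the main one. Ccl3, a ligand of CCR1, was at 262, 209.7 and 275 and 145542, 131688 and 134654 normalised counts (9.09 ± 0.14), and its neighbour Ccl4 at 176, 101 and 143 and 62389, 62626 and 65549 (8.79 ± 0.17). Cxcl2, which draws neutrophils, was at 72.5, 47.4 and 42.9 and 33988, 27087 and 27909.7 (9.09 ± 0.34), and Ccl2, which draws monocytes, at 34.7, 15.2 and 20.1 and 8988, 9281 and 12871 (8.75 ± 0.37). In each of these the lowest LPS library lay far above the highest unstimulated one. Cxcl10 and Ccl5 were among the 10 genes left without a p because a single library deviated strongly by Cook's distance. Cxcl10, a ligand of CXCR3, was at 130.4, 6.77 and 19.4 and 131583, 133735 and 133664, and Ccl5 at 483, 28.8 and 43.6 and 86232, 84012 and 75383, with unstimulated replicate 1 far above its 2 companions in both; by edgeR's quasi-likelihood test they rose by 11.10 (adjusted p = 1.4e-13) and 8.64 (adjusted p = 1.6e-08). Cxcl11, another CXCR3 ligand, was at least 419-fold higher, and Cxcl14 (-0.53) was the member that fell.

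**Figure D3:**
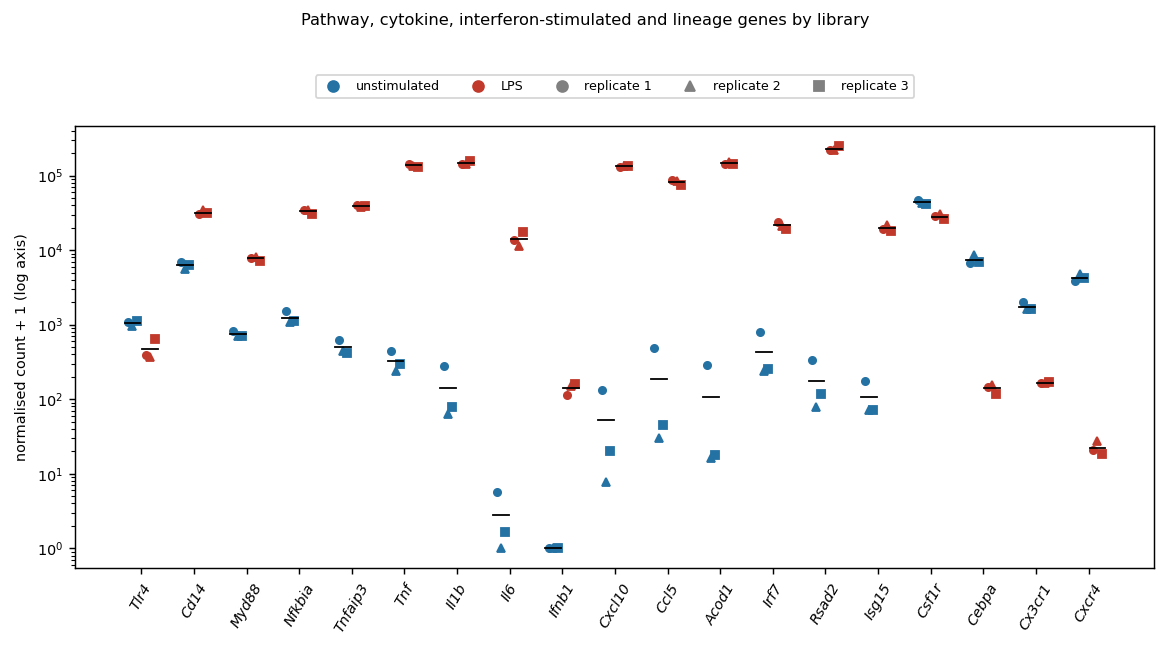
Normalised count plus 1 (log axis) of 19 genes in each library, blue for unstimulated and red for LPS, with the marker shape giving the replicate and the bar the mean of 3. Tlr4, Csf1r, Cebpa, Cx3cr1 and Cxcr4 are lower in every LPS library and the other 14 higher, and unstimulated replicate 1 stands above its group from Il1b to Isg15 for every gene but Ifnb1, which is at 0 in all 3.

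The promoters of 6 genes named for their rise are printed as examples that hold NF-kB or interferon motif letters, and were chosen for these matches, each as the 200 bases before the RefSeq start in GRCm38.p6, a later build than the mm9 of the counts, in the direction of the gene and in lower case, with motif matches in capitals. Letters searched on both strands were GGG and TTTCC with a pair of free bases between them for NF-kB, GAAA and GAAA with a pair of free bases between them for the interferon-stimulated response element (ISRE), TGANTCA for AP-1 and TATAAA for the TATA box, where matches may overlap. Cxcl2 lies at chr5:90903699-90903898, plus strand, Il6 at chr5:30012914-30013113, plus strand, Nfkbia at chr12:55492648-55492847, minus strand, Ifit1 at chr19:34640689-34640888, plus strand, Isg15 at chr4:156200819-156201018, minus strand and Rsad2 at chr12:26456453-26456652, minus strand.
Cxcl2: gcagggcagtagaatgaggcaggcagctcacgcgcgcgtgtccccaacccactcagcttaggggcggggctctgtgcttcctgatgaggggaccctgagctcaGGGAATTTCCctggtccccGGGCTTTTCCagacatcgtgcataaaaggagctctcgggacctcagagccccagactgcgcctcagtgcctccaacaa
Il6: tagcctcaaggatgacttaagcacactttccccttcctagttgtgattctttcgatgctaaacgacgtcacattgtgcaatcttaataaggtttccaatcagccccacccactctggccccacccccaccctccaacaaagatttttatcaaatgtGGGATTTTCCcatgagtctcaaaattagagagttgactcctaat
Nfkbia: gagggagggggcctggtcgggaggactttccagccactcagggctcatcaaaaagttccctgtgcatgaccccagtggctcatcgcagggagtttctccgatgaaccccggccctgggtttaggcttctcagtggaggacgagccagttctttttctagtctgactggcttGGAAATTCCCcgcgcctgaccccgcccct
Ifit1: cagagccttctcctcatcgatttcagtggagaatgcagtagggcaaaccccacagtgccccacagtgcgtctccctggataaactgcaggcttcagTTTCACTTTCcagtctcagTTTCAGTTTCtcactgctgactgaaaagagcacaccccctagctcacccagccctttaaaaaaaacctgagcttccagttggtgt
Isg15: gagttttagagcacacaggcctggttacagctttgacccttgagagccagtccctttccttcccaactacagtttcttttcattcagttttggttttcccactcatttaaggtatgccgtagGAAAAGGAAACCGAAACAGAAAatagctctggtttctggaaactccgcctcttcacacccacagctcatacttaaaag
Rsad2: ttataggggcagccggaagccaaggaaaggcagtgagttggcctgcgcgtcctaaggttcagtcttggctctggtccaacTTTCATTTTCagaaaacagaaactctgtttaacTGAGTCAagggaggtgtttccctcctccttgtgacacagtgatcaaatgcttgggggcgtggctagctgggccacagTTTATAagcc

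The capitals mark NF-kB matches in Cxcl2 (2), Il6 (1) and Nfkbia (1) and ISRE matches in Ifit1 (2), Isg15 (3, overlapping in 1 run) and Rsad2 (1), where an AP-1 and a TATA match follow. They are not typical of the genes described: of 31 pathway genes and leading rises and falls with a promoter in the table, 5 held the NF-kB letters in these 200 bases and 5 the ISRE letters. Tnf, Il1b, Il12b, Ccl3, Ptgs2 and Rela had no NF-kB match and Cmpk2, Oasl1 and Irf7 no ISRE match, while Cd300lb, among the largest falls, had an NF-kB match. In the 250 bases before the start, the NF-kB letters stood in 4 of the 17 chemokine promoters in the table (23.5%) and 3 of 32 cytokine promoters, against 1.45% of the 11357 promoters of tested genes, 2.54% of those of genes that rose by more than 2-fold and 0.888% of those that fell by as much. The ISRE letters stood in 12 of 38 promoters of antiviral interferon-stimulated genes (31.6%), in 6.77% of the promoters of genes that rose by more than 2-fold, in 1.70% of those that fell and in 2.83% of all. TATA letters were in 7 of 17 chemokine promoters (41.2%) and 10 of 32 cytokine promoters (31.2%), against 6.98% of all. These shares describe letters in a window and no binding was measured here.

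The interferon beta gene was not detected at rest and was low after LPS. Ifnb1 held 0, 0 and 0 normalised counts unstimulated and 113, 151 and 157 with LPS, which makes it at least 44.8-fold higher, at a TPM of 19.5 ± 4.39. The genes that interferon induces rose almost without exception: 49 of 50 antiviral interferon-stimulated genes rose, all 49 by more than 2-fold, and 49 rose under total counts as well, with a median of 4.40, and the exception, Rnase4 (-0.58), fell. Rsad2, the antiviral enzyme viperin, was at 336, 77.8 and 117 and 220936, 218747 and 246297 normalised counts (10.33 ± 0.41) and had the highest count of the list with LPS. Its neighbour on chromosome 12, Cmpk2, a mitochondrial nucleotide kinase, was at 326, 118 and 113 and 110657, 112433 and 114019 (9.23 ± 0.33). Ifit1, which binds foreign RNA caps, was at 245, 55.8 and 77.1 and 47266, 50345 and 61807 (8.70 ± 0.40), and Isg15, the ubiquitin-like modifier, at 176, 71.0 and 71.1 and 19515, 21836 and 17859 (7.52 ± 0.27). In all 4 the groups were far apart, and the unstimulated spread was wider than the LPS spread in proportion. Oasl1 (9.74), which restrains Irf7 translation, and Mx1 (9.19), a dynamin-like antiviral GTPase, rose too.

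The guanylate-binding and immunity-related GTPases, which attack membranes around intracellular microbes, rose in all 15 tested members (median 6.00; 6.73 without unstimulated replicate 1), and 2 further members, Gbp2 and Gbp5, had no p by Cook's distance. Without unstimulated replicate 1 both had an adjusted p and 17 members rose, so the 2 medians cover different members. Gbp3 was at 285, 109.9 and 111 and 23970.5, 22454 and 23259 normalised counts (7.09 ± 0.28), Igtp at 305, 123 and 159.5 and 13689, 13954 and 13852 (6.12 ± 0.19), and Tgtp2 and Gbp7 changed by 7.30 and 6.00. Reads of near-identical copies such as Tgtp1 and Tgtp2 and of the Gbp and Oas clusters may be split between members by the counting, so single values in these families are uncertain.

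Resting replicates were not alike in these genes. Unstimulated replicate 1 was the highest of the 3 in 47 of 50 antiviral genes (94%), 14 of 15 GTPases and 16 of 17 MHC class I genes. It was the highest in 35.6% of all genes tested and in 61.6% of those that rose by more than 2-fold. Other lists stood high as well, with 24 of 29 feedback inhibitors, 18 of 22 inflammasome and cell death genes and 18 of 22 cholesterol synthesis genes. The median log2 ratio of this library to the mean of the other 2 was 1.36 in the GTPases, 0.77 in the antiviral genes and 0.29 in the chemokines. Leaving it out enlarged the rises: of 1660 genes that rose by more than 2-fold at a mean of at least 100, 90 moved by more than 1.5-fold, against 0 to 23 for the other libraries. Among named genes without it, Rsad2 changed by 11.14, Cmpk2 by 9.93, Oasl1 by 11.09, Mx1 by 10.44, Ifit1 by 9.59, Isg15 by 8.12, Usp18 by 8.15, Tgtp2 by 8.70, Gbp3 by 7.72, Gbp7 by 6.73 and Irf7 by 6.45. Of the cytokine, chemokine and feedback genes, Il1b changed by 11.00, Ccl5 by 11.13, Cxcl10 by 13.05, Socs3 by 9.72 and Socs1 by 8.58, while Il6 and Il12b kept 2 or fewer counts in each remaining unstimulated library. Why this library differed was not tested.

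**Figure D4:**
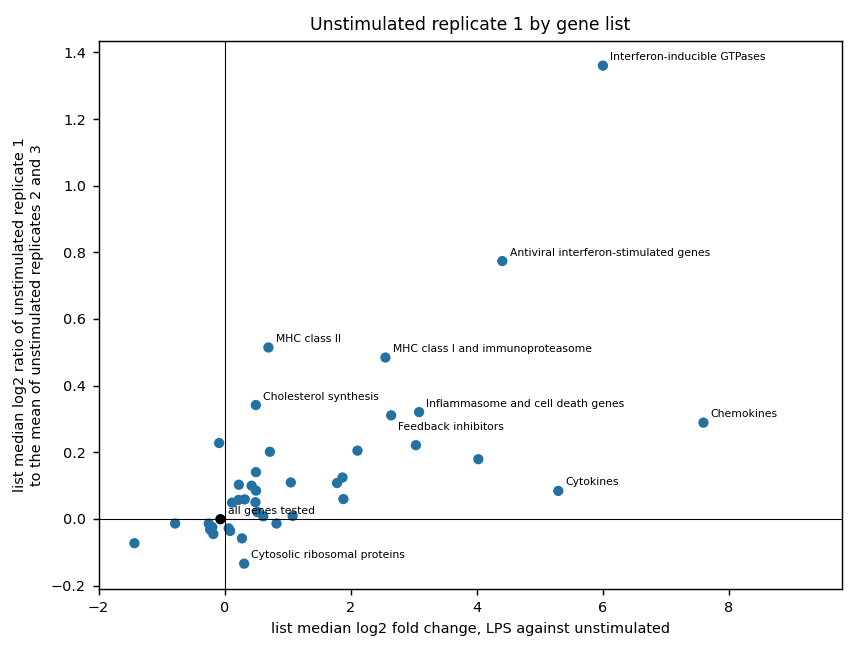
Each point is a gene list, with its median log2 fold change with LPS on the horizontal axis and, on the vertical axis, the median log2 ratio of unstimulated replicate 1 to the mean of unstimulated replicates 2 and 3; both axes share that library. The interferon-inducible GTPases (1.36) and antiviral genes (0.77) lie highest, all genes tested near 0.

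Antigen presentation rose mainly on the class I side. All 17 genes of MHC class I and the immunoproteasome rose, 15 by more than 2-fold (median 2.55), led by the class I activator Nlrc5, from 900.2, 345 and 309 to 15338, 14369 and 13583 (4.80 ± 0.31), and the peptide transporter gene Tap1, from 1257, 658 and 649 to 20289, 20216 and 17896 (4.50 ± 0.17). Psme2 (3.49), a proteasome activator subunit, and Tap2 (3.47) came next, and without unstimulated replicate 1 Nlrc5 changed by 5.48. The constitutive proteasome rose in 31 of 34 genes but with a smaller median of 0.82, led by Psma6 (2.78), and with 12 higher and 14 lower under total counts. Of 11 class II genes 6 rose, none by more than 2-fold (median 0.69); Cd74, the invariant chain, was at 3292, 2344 and 2264 and 5399.5, 5237 and 4631 (0.95 ± 0.14), overlapping in no library, though at 0.02 under total counts, where 0 rose and 3 fell.

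The signals that T cells read changed with it. Of 16 costimulatory and checkpoint ligands, 9 rose and 5 fell (median 3.03, which was 3.84 without unstimulated replicate 1). This median lay 3.10 above that of all genes and 3.89 above it without LPS replicate 2. Cd40 was at 70.2, 30.4 and 44.9 and 47419, 46925 and 45840 normalised counts (9.87 ± 0.28), and Cd274, which encodes PD-L1, at 545, 282 and 254 and 25028, 25306 and 28591 (6.18 ± 0.19), in both with no overlap. Icosl (5.00) and Pvr (4.26) rose, while the inhibitory Vsir (-1.61) (VISTA) fell. Cd200r1 (-1.47), listed here although it encodes an inhibitory receptor of the macrophage and not a ligand, fell too. Cd69, an activation antigen best known from lymphocytes, had the largest fitted rise of the genes that had an adjusted p and were above the floor in all 6 libraries at a mean of at least 100, from 26.2, 8.46 and 8.04 to 23234, 21624 and 29503 (10.73 ± 0.52; 11.56 without unstimulated replicate 1). The T cell marker sum meanwhile was 10.2, 13.9 and 16.4 TPM unstimulated and 4.53, 4.85 and 5.57 TPM with LPS.

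Receptors for these mediators were less uniform. The chemokine receptors rose in 8 of 15 genes and fell in 3, but 4 rose and 5 fell under total counts. Cxcr4, the CXCL12 receptor that holds cells in the marrow, was at 3893, 4727 and 4255 normalised counts unstimulated and 19.8, 26.9 and 17.2 with LPS (-7.63 ± 0.22, adjusted p = 1.1e-261), the largest fall of the genes above the floor in all 6 libraries at a mean of at least 100. Cx3cr1, the fractalkine receptor, fell from 1990.3, 1646 and 1623 to 163, 164 and 171 (-3.40 ± 0.21), again with the groups far apart, and Ccrl2 (6.17), a receptor that binds chemerin without signalling, rose. Of 28 cytokine receptors, 15 rose and 9 fell. Under total counts 8 rose and 14 fell, where 2223 of all 14646 genes tested rose and 8858 fell. Il15ra (6.44), Tnfrsf1b (2.87) (TNF receptor 2) and Il13ra1 (2.76) rose, and Il6ra (-3.16) and Il7r (-2.46) fell.

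Genes of inflammasomes and cell death rose in 18 of 22 and fell in 2 (median 3.08). Nlrp3, the sensor that must be induced before it can assemble, was at 853, 644 and 688 and 36766, 37931 and 35225 (5.64 ± 0.10), whereas the sensors Nlrp1b, from 512, 519 and 454 to 77.8, 63.1 and 52.8 (-2.95 ± 0.17), and Nlrc4, from 308, 227 and 279.5 to 94.7, 66.2 and 55.2 (-1.94 ± 0.18), fell without overlap. On the side of survival, Cflar (4.92), a caspase-8 inhibitor, and Traf1 (7.62) (8.21 without unstimulated replicate 1) rose, as did Mlkl (4.78), the effector of necroptosis. In the BCL2 family 11 of 17 rose and 4 fell (median 1.05; 7 and 6 under total counts). The anti-apoptotic Bcl2a1b (4.31) and Bcl2a1d (7.63), near-identical copies whose single values are uncertain, rose, and Bmf, a pro-apoptotic BH3-only gene, fell from 704, 634 and 562 to 4.24, 1.03 and 1.23, at least 172-fold lower, and its fitted change of -8.30 became -9.14 without LPS replicate 1.

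Enzymes that make antimicrobial and lipid mediators gave some of the steepest rises in a list that was otherwise divided: 14 of 26 tested rose and 9 fell, 12 and 12 under total counts. Nos2, inducible nitric oxide synthase, was at 6.94, 0 and 0 and 15493, 15956 and 14663 normalised counts, a change of 12.50 ± 0.49 from a base near the floor; without unstimulated replicate 1 that base is at 0 in both other libraries and the fitted change, 16.26, is no measure of size. Ptgs2, the COX-2 gene, was at 50.9, 5.07 and 11.4 and 58382, 51102 and 72221 (11.36 ± 0.65; 12.65 without unstimulated replicate 1). Acod1, whose enzyme makes itaconate, was at 289, 15.2 and 16.8 and 143529, 152063 and 144105, had no DESeq2 p for the deviation of unstimulated replicate 1, and rose by 10.25 in edgeR (adjusted p = 1.0e-10), or 13.15 by DESeq2 without that library. The groups of all 3 lay far apart. Ch25h (6.78), which oxidises cholesterol, the arginine transporter Slc7a2 (6.64), Ptges (5.31) and Gch1 (4.87), which supplies the cofactor of Nos2, also rose, and Arg2 (-1.44) and Ptgs1 (-1.32), the COX-1 gene, fell; Ptges changed by 6.01 without unstimulated replicate 1.

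Of the iron transporters, the exporter gene fell and an importer gene rose. Slc40a1, ferroportin, which exports iron from cells, was at 2101, 2686 and 2813 normalised counts unstimulated and 82.0, 62.0 and 60.2 with LPS (-5.23 ± 0.16, adjusted p = 4.0e-222). Slc39a14 (3.28), a zinc and iron importer, Cp (5.00) (ceruloplasmin) and the cystine transporter Slc7a11 (5.53) rose, the last by 6.13 without unstimulated replicate 1. Ferritin light chain, Ftl1, fell (-0.71 ± 0.10), from 29514 ± 463 to 10469.9 ± 833 TPM, one of the largest losses of TPM, while the heavy chain Fth1 changed by 0.49 ± 0.10, or -0.44 under total counts. In all, 10 of the 21 NRF2, metal and iron genes rose and 6 fell (9 and 11 under total counts), with Gclc (-1.17), of glutathione synthesis, among the falls.

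Glycolysis genes rose in 14 of 23 and fell in 3, by a median of 0.61, and 9 rose and 12 fell under total counts. The regulated entry steps led: Pfkfb3, which makes the activator of phosphofructokinase, was at 531, 446 and 449 and 4790.1, 4291 and 4255 (3.22 ± 0.11), Pfkp (2.87) and Hk2 (2.46) (hexokinase 2) followed, as did Hif1a (2.28), and the isoforms Pfkfb4 (-2.11) and Pfkm (-1.81) fell. Of 24 genes of the tricarboxylic acid cycle, 11 rose and 8 fell (0 and 22 under total counts), with 1 change beyond 2-fold: Idh1, from 2033, 2667 and 2689 to 718, 783 and 823 (-1.67 ± 0.11). Among 74 oxidative phosphorylation subunits 37 rose and 9 fell with a median of 0.27, which is inside the shift between scalings, since 1 rose and 66 fell under total counts.

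Sterol genes did not move as one group. Cholesterol synthesis and uptake genes rose in 12 of 22 and fell in 5 (8 and 12 under total counts), with Idi1 (2.23), an isomerase of the mevalonate pathway, at 229.9, 154 and 169 and 879, 754 and 987, rising and Dhcr7 (-2.35) and Mvk (-1.28) falling. Of 14 efflux genes and LXR targets 4 fell, 2 rose and 8 did not pass, and 0 rose and 13 fell under total counts. Abca1 went from 11240.4, 11748 and 10931 to 3246, 3915 and 3763 (-1.63 ± 0.10), Abcg1 changed by -1.37 ± 0.10, Mylip (-1.17) and Scd2 (-3.52) fell, and those that rose were the receptor genes themselves, Nr1h2 (0.63) and Nr1h3 (0.56), at -0.29 and -0.37 under total counts. Apoe, at 25991 ± 1141 and 17866 ± 2109 TPM, had a log2 fold change of 0.25 ± 0.13 that did not pass.

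Lysosomal genes fell in 20 of 38 and rose in 8, with a median of -0.23, and fell in 34 under total counts. Tfeb, the factor that drives lysosome genes, was at 862, 984 and 860.0 and 67.9, 57.9 and 40.5 (-4.03 ± 0.18), and Sgsh, a heparan sulphatase, at 1159, 1615 and 1351 and 106, 100.3 and 73.7 (-3.88 ± 0.15), in both with every LPS library lower. The abundant cathepsin genes moved less: Ctsd changed by -0.51 ± 0.09 and Ctsb, which did not pass, by -0.09 ± 0.05, yet in TPM Ctsd went from 11304 ± 1048 to 4639 ± 322. Ctsc, which activates serine proteases, and Mitf, a relative of Tfeb, rose by 2.53 and 1.44.

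Surface receptors for clearance rose in 8 of 24 and fell in 9, shares near the 31.6% and 32.9% of all genes, and under total counts 8 rose and 16 fell. Olr1 (6.61), a receptor for oxidised LDL, Clec4e (5.91) (Mincle; 6.59 without unstimulated replicate 1), Itgav (2.62) and Axl (2.31) rose. Mrc1, the mannose receptor, was at 2737, 2175 and 2582 and 2326, 2017 and 3007 (-0.03 ± 0.18), overlapping between groups, but at -0.96 under total counts. Of the 6 Fc receptor genes, Fcgr4 (3.61), Fcgr2b (2.64), Fcgr1 (1.97) and the shared chain Fcer1g (1.80) rose and Fcgr3 (-0.91) and Fcgrt (-0.66) fell. Of 13 complement genes 10 rose and 0 fell, though 4 rose and 6 fell under total counts, and their median of 0.72 was 1.47 without unstimulated replicate 1. In that fit 12 rose, and its tested members may differ from those of the main fit. C3, the central component, went from 1966, 304 and 418 to 36957, 33628 and 30700.4 (5.23 ± 0.61; 6.54 without unstimulated replicate 1).

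Genes of coagulation and matrix breakdown rose in 15 of 23 and fell in 5 (median 1.87). Mmp13, collagenase 3, was at 149, 71.0 and 112 and 57435, 51390.5 and 74368 (9.09 ± 0.29), and Plaur (4.24), the urokinase receptor gene, and Mmp14 (3.98) rose too. Thbd, thrombomodulin, which turns thrombin towards anticoagulation, fell from 267, 379 and 332 to 7.07, 2.07 and 6.14 (-6.06 ± 0.46), and Mmp19 (-2.33) fell.

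Factors that define macrophages did not move together. Of 13 lineage genes 6 rose and 4 fell (4 and 7 under total counts), with a median of 0.12. Cebpa was at 6762, 8685 and 6949 and 147, 153 and 117 (-5.75 ± 0.19). Spi1, the PU.1 gene, rose from 5854, 5294 and 5102 to 24448, 23148 and 18241 (2.02 ± 0.11), and Cebpd (3.08) rose as well; none of the 3 overlapped between groups. Csf1r, the M-CSF receptor, was at 46771, 43024 and 41012 and 28387, 30288 and 26149 (-0.62 ± 0.07), while Lyz2, at 18407 ± 721 TPM unstimulated and 10214 ± 439.7 with LPS, had a count change of -0.07 ± 0.06 that did not pass. Among 16 alternative activation markers 7 rose and 2 fell (4 and 6 under total counts); Pparg, the nuclear receptor of that program, fell from 558, 665 and 652 to 39.6, 42.4 and 30.7 (-4.05 ± 0.18), as did Clec10a (-1.46), and Tgm2 (1.74) rose.

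Among receptors for nucleotides and metabolites, 9 of 19 rose and 7 fell (8 and 10 under total counts). Hcar2 (7.81), the receptor for butyrate and niacin (8.64 without unstimulated replicate 1), Gpr84 (5.39), for medium-chain fatty acids (6.20 without it), and Gpr132 (4.37) rose. Gpr183, the receptor for the oxysterol whose precursor Ch25h makes, fell from 484, 494 and 473 to 36.8, 27.9 and 33.1 (-3.90 ± 0.21), and Gpr35 (-2.95) fell. The other leading falls above the floor have no shared list: Tmem86a (-6.74), Arhgap19 (-6.67), Plekhg3 (-6.56), Sox4 (-6.55), Engase (-6.52), Lhfpl2 (-6.41), Lyl1 (-6.39), Cd300lb (-6.34) and Abcd2 (-6.08), of which Sox4 and Lyl1 encode transcription factors.

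Nuclear regulators fell more often than they rose. Chromatin regulators rose in 12 of 34 and fell in 17 (median -0.25), where 31.6% of all genes tested rose and 32.9% fell. Beyond 2-fold this list was even, with 6 rising and 6 falling. Kdm6b, the H3K27 demethylase JMJD3, was at 172, 186 and 158 and 4168, 3908 and 3068 (4.44 ± 0.17), and Tet2 (3.23) rose, while Hdac5, from 1973, 2241 and 2064 to 137, 119 and 92.1 (-4.18 ± 0.12), and Dnmt1 (-2.64), the maintenance DNA methyltransferase, fell. The 328 tested genes named Zfp, mostly zinc finger proteins, fell in 183 and rose in 47 (median -0.79), where 32.9% of all genes tested fell. Single members spanned a wide range, from Zfp811 (8.64) and Zfp800 (4.05) to Zfp704 (-4.81) and Zfp810 (-3.53).

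The cell cycle list was the lowest of the 40, with 35 of 43 genes falling and 8 rising and a median of -1.43. Plk1, a mitotic kinase, was at 108, 123 and 135 and 15.6, 13.4 and 12.3 (-3.16 ± 0.35), without overlap. The members that rose most act at the entry to the cycle or against it: Ccnd2, a G1 cyclin, went from 50.1, 38.9 and 58.3 to 12658, 10790.5 and 12777 (7.90 ± 0.20), Cdkn1a, the p21 inhibitor, from 1140.2, 1126 and 1120.1 to 83949, 83769 and 77095 (6.18 ± 0.09), and Ccne1 (3.17) rose as well.

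**Figure D5:**
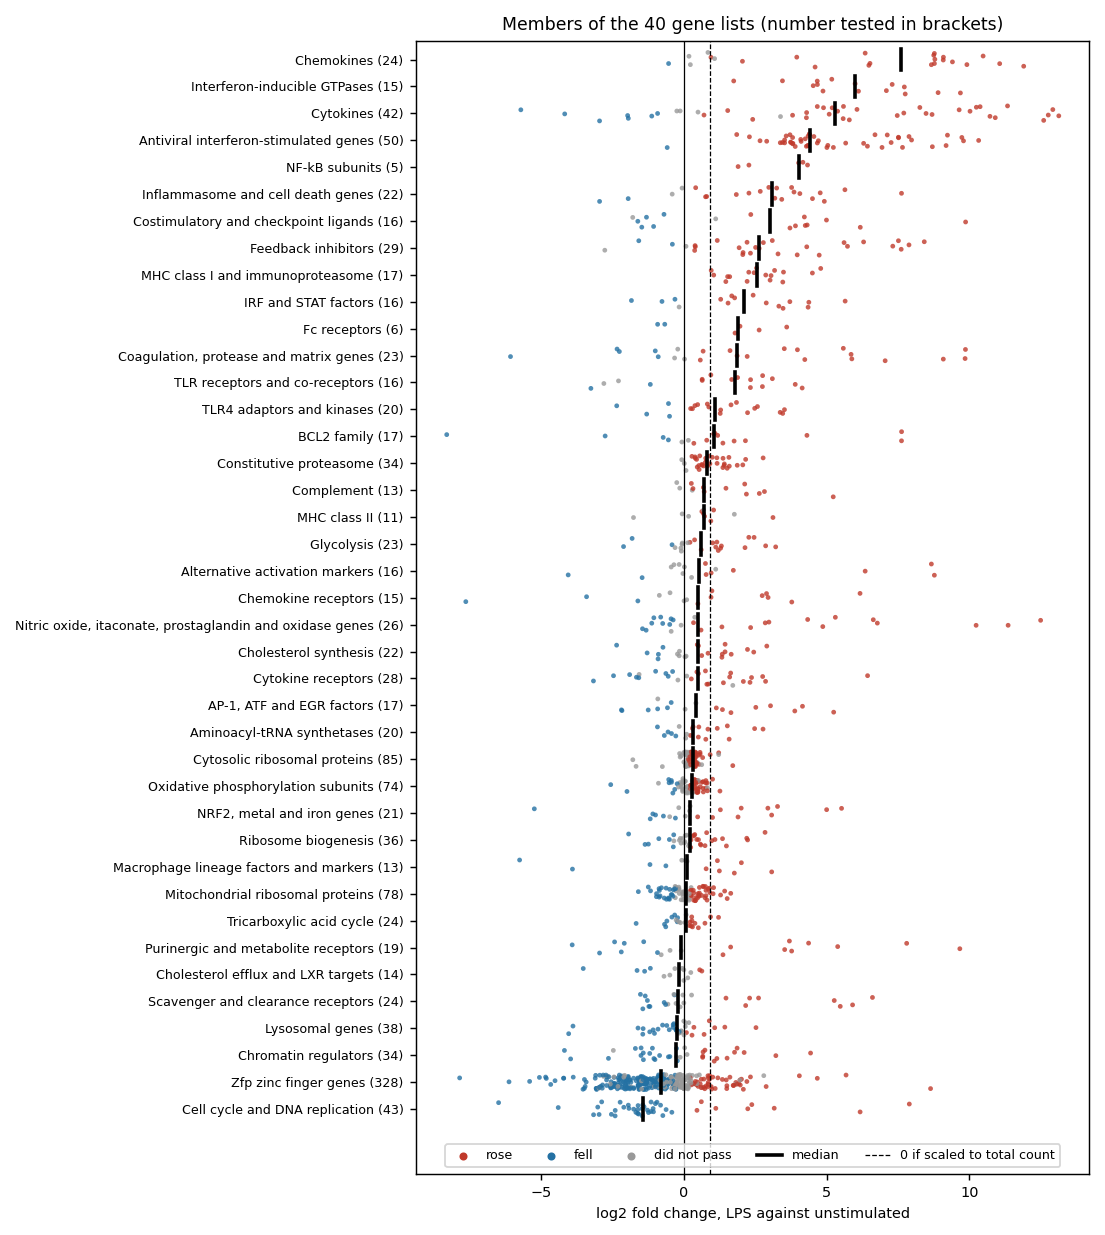
Log2 fold change with LPS of each tested member of the 40 gene lists, red for rose, blue for fell and grey for did not pass, sorted by the list median (black bar); the dashed line at 0.93 is where 0 would lie under total-count scaling. Medians run from 7.60 for chemokines to -1.43 for the cell cycle, and those from the proteasome downwards lie left of the dashed line.

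The machinery of translation changed little in either direction under the main scaling. Of 85 cytosolic ribosomal protein genes, 51 rose and 0 fell, yet by a median of 0.31, so that under total counts 2 rose and 77 fell. Mitochondrial ribosomal proteins rose in 33 and fell in 23 of 78 (4 and 62 under total counts), ribosome biogenesis genes rose in 18 and fell in 7 of 36 (5 and 27), led by Wdr43 (2.85), Noc4l (2.24) and Rrs1 (2.21), and aminoacyl-tRNA synthetases rose in 12 and fell in 5 of 20 (5 and 13). Wars, the tryptophan enzyme that interferon induces, was at 557, 475 and 491 and 3552, 3592 and 3341 normalised counts (2.78 ± 0.09), the largest rise of its list and without overlap.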

How the data were processed

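Per the study's methods, RNA of 18 cultures was made into stranded, ribosome-depleted paired-end libraries, aligned with STAR to mm9 and counted with RSEM 1.2.31 at default settings. The authors deposited an expected count, a TPM value and an FPKM value per gene and library; FPKM was not used here. RSEM's defaults do not use strand, so overlapping and antisense genes, like near-identical copies, cannot be told apart with certainty. The lanes named in the deposited tables were 7, 7 and 8 for unstimulated replicates 1, 2 and 3 and 7, 8 and 8 for LPS.

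The deposited expected counts were rounded to whole numbers and all 18 libraries were fitted together by group with DESeq2 1.42.0 in R 4.3.3 (median-of-ratios factors, Wald test, independent filtering, adjusted p under 0.05), with a second test against a fold of 2. The steps were tested on simulated data in which a small part of the genes changed, in either direction, so the choice of scaling was not tested there. Alternatives used edgeR 4.0.16, limma 3.58.1 on log2(TPM + 1) and log2(TPM + 0.1), other scalings, filters, a replicate block and left-out libraries. The median of a list is over its members with an adjusted p in the fit in question, so the members can differ between fits. Shares of deposited TPM were compared by exact permutation tests over 3 against 3 libraries.

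Members and gene lists were chosen with earlier results of these data known. Named genes were Il10, fixed pathway genes, the 10 largest rises and falls above 3 counts in every library at a mean of at least 100, genes rising from the floor, the 10 largest gains and losses of TPM, and for each list up to 4 leading members and 2 opposite ones; of these the text names a part, and some are not reported here. A floor of 3 counts covers counting error only.

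The labels tie the cultures to 3 mice, and same-numbered libraries deviated together from their group means (correlation 0.117, 0.105 and 0.140 over 11460 genes), so the numbers were taken to pair them. Replicates 1 and 3 each had the same lane in both groups, so lane and mouse cannot be told apart in them. The main fit did not use the pairing, and the replicate block did. Each group is 3 cultures. The DESeq2 p-values of the main fit rest on a spread estimated over all 18 libraries, those with JQ1 or IL-10 included. With the 6 libraries alone 9017 genes were called, against 9656 in the main fit.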

Additional observations from a re-analysis of the deposited data

How the results depend on the processing

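The counts of changed genes in each direction kept within 1.5 times of the main ones under TMM factors, edgeR (4415 higher, 5204 lower), the 6 libraries alone, lane as a term, other filters and left-out libraries, where 8239 to 9364 genes were called in all and 3115 to 3623 beyond 2-fold. The scaling moved the split. Scaled to total counts, 2223 genes were higher and 8858 lower (1078 and 4454 beyond 2-fold), and 1300 genes called in both fits took opposite directions; on log2(TPM + 1) 2310 were higher and 7641 lower (1044 and 2912), and on log2(TPM + 0.1) 2298 and 7607 (1139 and 3763), and the median gene lies lower under these scalings. With the replicate number as a block, 9711 genes were called, 4757 higher and 4954 lower, and 3792 beyond 2-fold, and none of the called genes named in the text lost its call.

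Under total counts, log2(TPM + 1) and log2(TPM + 0.1) in that order, the fold change was -0.68, -0.55 and -0.55 for Apoe, -0.44, -0.30 and -0.30 for Fth1, -0.29, -0.15 and -0.15 for Nr1h2, -0.37, -0.21 and -0.21 for Nr1h3, -0.65, -0.57 and -0.57 for Rpph1, -0.73, -0.63 and -0.63 for Rmrp and -0.64, -0.50 and -0.50 for Rn45s, while Il10 was at -0.0034 under total counts. Mrc1, which did not pass in the main fit, passed as a fall at -0.96 under total counts and -0.80 on log2(TPM + 1). It was at 0.0097 in the 6 libraries alone and between -0.20 (without LPS replicate 3) and 0.093 (without LPS replicate 2) with a library left out.

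The median of the AP-1, ATF and EGR list against that of all genes ranged from -0.25 without LPS replicate 2 to 1.2 without replicate 1, and was -0.03 without replicate 2. That of the purinergic and metabolite receptors, -0.02 in the main fit, became 0.0021 under total counts, 0.71 and 0.68 on log2(TPM + 1) and log2(TPM + 0.1), and ranged from -0.059 without unstimulated replicate 2 to 0.020 without unstimulated replicate 1; the cause was not tested.

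Limits are the 3 cultures per group, which leave an exact test no p under 0.1, the few counts of genes silent at rest, the smaller depth of unstimulated replicate 2, and a unit that is relative to the rest of the RNA, so that total RNA per cell is not measured.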

Other observations

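Gene groups taken by the letters of their symbols, and looked at after the values were seen, also differed from the background of 31.6% rising and 32.9% falling. Histone genes named Hist, whose transcripts mostly lack a poly(A) tail and are captured by ribosome-depleted libraries, fell in 57 of 67 tested (85.1%) and rose in 3, with a median log2 fold change of -1.80. Kinesins named Kif, motors of the spindle and of cargo transport, fell in 19 of 34 and rose in 4, and the Tbc genes, many of which switch off Rab GTPases, fell in 19 of 30 and rose in 7. Atg genes of autophagy fell in 11 of 18 and rose in 5.

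In the other direction, interferon-inducible genes named Ifi rose in 15 of 16 (median 6.10), genes of ubiquitin-conjugating and related enzymes named Ube rose in 25 of 40 and fell in 3 (0.62), RNA helicases named Ddx rose in 25 of 36 and fell in 2 (0.59), and translation initiation factors named Eif rose in 34 of 54 and fell in 8. The last 3 medians lie below the 0.93 by which total-count scaling lowers fold changes and so change sign there.

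A few short non-coding RNAs held much of the TPM. Rpph1, the RNA of ribonuclease P, took 17.8, 18.9 and 15.8% of TPM in the unstimulated and 15.5, 12.5 and 8.42% in the LPS libraries, and Rmrp, the RNA of ribonuclease MRP, 4.56, 5.66 and 5.04% and 3.85, 3.71 and 2.44%. With these and Rn45s removed from the total, cytokines and chemokines held 0.284% ± 0.0350 of TPM unstimulated and 11.7% ± 0.418 with LPS (SD, n = 3). The 5 RNAs with the highest unstimulated TPM among those at or under 3 counts in every LPS library were small nucleolar RNAs and microRNA precursors, of which none passed the test.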
